A study of Mus musculus with 6 samples.

Results

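The collagens are the main structural proteins of the extracellular matrix, and 44 of the 44065 genes in the deposited table encode a collagen chain. They were taken as every protein-coding gene whose symbol is Col, a type number, the letter a and a chain number, which makes them 44 of 20460 protein-coding genes. They were split by the structure of the protein into 11 fibrillar, 8 basement membrane and 25 other collagens. Levels are FPKM, the reads of a gene per kilobase of its length, scaled to a total set for each library. In all, 28 of the 44 reached 0.5 FPKM in at least 3 of the 6 libraries and were tested, and 16 did not. The tested members were 6 fibrillar, 7 basement membrane and 15 other collagens. Col17a1, at a mean of 0.526 FPKM over all libraries, was the lowest tested member, and Col4a6, at 0.424 FPKM, was the highest one left out. Every tested member reached 0.5 FPKM in at least 2 libraries of each group, so none was tested on the strength of 1 group alone.

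The libraries came from testis tissue of male C57BL/6 mice, aged 6 weeks when a 10-week exposure began. The 3 control libraries (CT) are compared with 3 sedentary libraries (ST), each made from total RNA freed of ribosomal RNA and called a biological replicate by the labels. The series title ties sedentary behaviour to sperm DNA damage and to testicular temperature, and the sources used here do not say how activity was limited. The design also names a group with compensating physical activity, which was not analysed here.

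Collagen chains wind around each other in groups of 3 to form a rope-like helix. In fibrillar types such as I, III and V these helices pack into fibres that carry tension, and in type IV they join into the sheet-like network of basement membranes. In the testis a basement membrane and a collagen-rich wall made with the peritubular myoid cells surround each seminiferous tubule, and further collagen lies in the interstitium and the outer capsule. Chains are hydroxylated and folded in the endoplasmic reticulum, trimmed after secretion, crosslinked outside the cell, bound by integrins and discoidin domain receptors, and cut by metalloproteinases.

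All 8 germ cell markers of the labelled tissue were detected, with a summed level of 18905 to 22457 FPKM in control and 24219 to 26715 FPKM in sedentary testes, while the 44 collagens together came to between 91.5 and 106.6 FPKM in a library. The germ cell sum was mostly Prm1, Prm2, Tnp1 and Tnp2. Whole reads recovered from the FPKM values came to between 28495596 and 38148228 per library. The rarest member, Col9a2, had 17 reads over all libraries, as had Col10a1, and Col22a1 had 39675.

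Promoter sequences are shown for the 2 chains of the commonest type IV trimer, because their genes start back to back, and for Col3a1, the member with the largest change. Each runs from 250 bases before to 50 bases after the start of the RefSeq gene on GRCm38.p6, on the gene's own strand. Capitals mark a CCAAT box (CCAAT), a GC box (GGGCGG) or a TATA box (TATAAA) on either strand.
Col4a1, minus strand, chr8:11312777-11313076: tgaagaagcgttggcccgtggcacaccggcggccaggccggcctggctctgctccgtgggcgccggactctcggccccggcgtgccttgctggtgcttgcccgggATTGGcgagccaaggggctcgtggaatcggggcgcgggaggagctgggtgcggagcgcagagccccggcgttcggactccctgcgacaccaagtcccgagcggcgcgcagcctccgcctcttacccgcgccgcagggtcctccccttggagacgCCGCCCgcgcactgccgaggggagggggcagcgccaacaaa
Col4a2, plus strand, chr8:11312555-11312854: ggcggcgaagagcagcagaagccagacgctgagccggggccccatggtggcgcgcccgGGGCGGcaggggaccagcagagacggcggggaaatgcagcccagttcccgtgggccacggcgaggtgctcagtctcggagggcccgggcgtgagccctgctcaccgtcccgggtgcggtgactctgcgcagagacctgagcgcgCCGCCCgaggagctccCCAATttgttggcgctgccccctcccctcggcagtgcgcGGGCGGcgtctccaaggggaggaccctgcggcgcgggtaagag
Col3a1, plus strand, chr1:45311288-45311587: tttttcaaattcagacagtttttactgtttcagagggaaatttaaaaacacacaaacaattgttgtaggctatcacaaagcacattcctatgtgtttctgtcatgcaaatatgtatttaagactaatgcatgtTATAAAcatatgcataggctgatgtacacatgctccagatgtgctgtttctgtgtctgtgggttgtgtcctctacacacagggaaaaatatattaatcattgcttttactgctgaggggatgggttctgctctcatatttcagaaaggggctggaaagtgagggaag

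The windows of Col4a1 and Col4a2 share 78 bases, from 11312777 to 11312854 of chromosome 8, read on opposite strands. One GC box, from 11312812 to 11312817, lies in both. The Col4a1 window held 1 CCAAT box and 1 GC box, and the Col4a2 window 1 CCAAT box and 3 GC boxes. The Col3a1 window held 1 TATA box and neither of the other motifs, and 37.7% of its bases were G or C, against 74.0% for Col4a1 and 73.7% for Col4a2. RefSeq windows matched 35 of the 44 collagens by symbol. A GC box was found for 22 of the 35 genes, a CCAAT box for 13 and a TATA box for 5, and among all 32851 windows of this length the shares were 35.7%, 37.4% and 13.6%. These matches describe the letters alone.

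The levels of the 44 genes spanned from 0.0256 to 21.0 FPKM as means over the 6 libraries. The highest were Col22a1, a collagen associated with fibrils at tissue junctions, Col20a1 and Col16a1, which belong to the same fibril-associated family, and the fibrillar Col2a1, best known as the main collagen of cartilage. Together these 4 made up 47 to 57% of the summed collagen FPKM in control libraries and 58.7 to 60.7% in sedentary ones, without overlap. Their summed level did overlap, at 47.0 to 56.9 FPKM in control and 55.6 to 62.6 FPKM in sedentary libraries. The next members by mean level, Col6a1, Col4a1, Col4a2 and Col1a2, all lay below 5 FPKM in every library. Each class held members above and members below 0.5 FPKM.

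**Figure D1:**
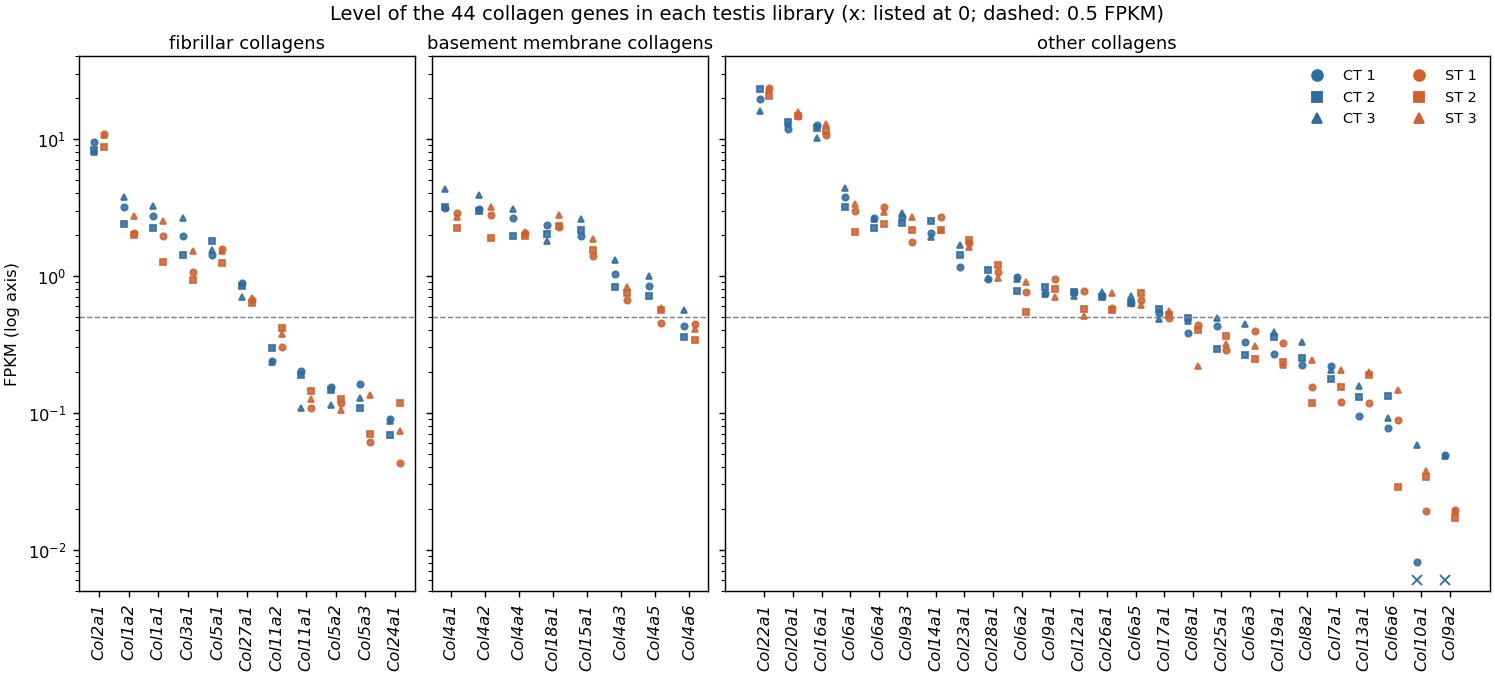
FPKM on a log axis for each of the 44 collagen genes in each of the 6 libraries, by class and in order of mean level, with control in blue and sedentary in orange. Col22a1, Col20a1, Col16a1 and Col2a1 stand above all other members, and the 16 untested genes lie below the 0.5 FPKM line in all but 1 library of Col4a6.

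In sedentary testes the mean levels of type I, III and IV collagen chains lay below those of controls and the means of several of the more abundant members lay above, but few single genes passed a test. On log2(FPKM + 0.5), limma called 0 of the 28 collagens at an adjusted p of 0.05, against 0.026% of all 19201 genes tested. Voom, limma's method for counts, was run on the recovered reads and called 1 collagen, Col3a1, lower, against 1.12% of all genes called lower. With an unadjusted p under 0.05, limma on FPKM gave 4 collagens lower and 1 higher, where the shares over all genes were 7.26% and 10.1%. On the reads these counts were 11 lower and 2 higher, with 9.58% and 10.7% over all genes. The control and sedentary values did not overlap in 4 tested collagens that were lower and in 1 that was higher, against 10.8% and 13.7% of all tested genes.

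Of the 28 tested collagens, 17 had a log2 fold change below 0, against 47.8% of all tested genes, and 11 one above 0. With TPM scaling 21 of the 28 lay below 0, and with summed reads as library totals 19 did. Their median was -0.14, beside 0.01 over all tested genes, and the values ranged from -0.56 to 0.25. The medians were -0.28 for fibrillar, -0.31 for basement membrane and 0.02 for other collagens. On the reads they were -0.38, -0.45 and 0.03. Over all 44 genes, tested or not, the sedentary mean FPKM was the lower one in 31 and the higher one in 13. These medians describe the lists and carry no test. The median of the other collagens was -0.049 with TPM scaling and -0.045 with summed reads as library totals, so its sign depends on the scaling. In whole tissue, fewer cells of a type and less RNA per cell cannot be told apart.

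**Figure D2:**
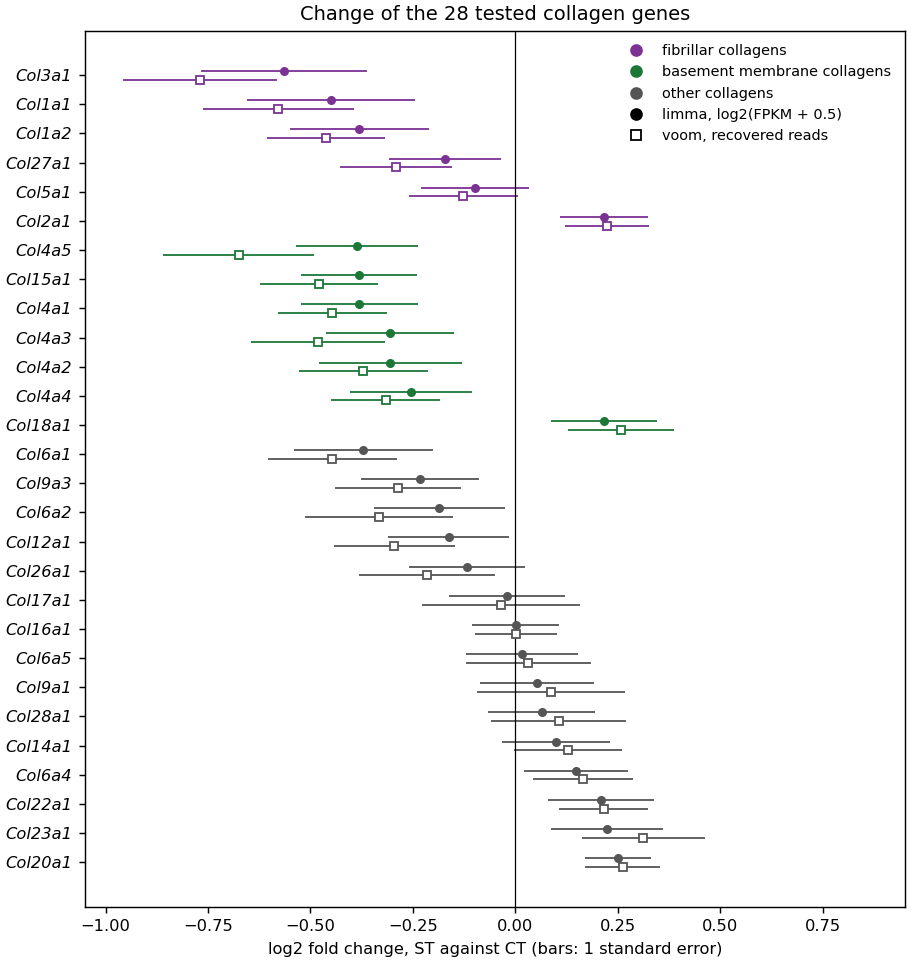
Log2 fold change of the 28 tested collagen genes, sedentary against control, with bars of 1 standard error, from limma on log2(FPKM + 0.5) in filled circles and voom on the recovered reads in open squares. The 5 fibrillar genes other than Col2a1 and 6 basement membrane genes lie to the left of 0 in both fits, and Col2a1 and Col18a1 lie to the right.

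Among the fibrillar collagens the genes of types I and III had the largest differences. Col3a1, the chain of type III collagen in pliable tissue, stood at 1.95, 1.42 and 2.63 FPKM in control replicates 1, 2 and 3 and at 1.07, 0.938 and 1.51 FPKM in sedentary replicates 1, 2 and 3. Sedentary replicate 3 lay above control replicate 2, so the groups overlapped by that pair. Over 2001 control and 1200 sedentary reads Col3a1 fell by 0.77 on the log2 scale, with a standard error of 0.19 and an adjusted p by voom of 0.0460. On log2(FPKM + 0.5) the change was -0.56 with a standard error of 0.20, and the adjusted p was 0.232 by limma. The call on the reads held without control replicate 2, at an adjusted p by voom of 0.00145, and was lost without any other single library, at 0.0762 to 0.221. The adjusted p by voom was 0.04998 over the genes with a GC value and 0.0620 after removal of each library's trend with GC content and length, and the log2 fold change was -0.77 in both.

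Col1a1 and Col1a2 encode the chains of type I collagen, which assemble as a trimer. Col1a1 stood at 2.72, 2.25 and 3.26 FPKM in the control and at 1.96, 1.26 and 2.52 FPKM in the sedentary libraries. Col1a2 stood at 3.17, 2.39 and 3.77 FPKM in the control and at 2.05, 1.99 and 2.73 FPKM in the sedentary libraries. For both genes sedentary replicate 2 was the lowest library and control replicate 3 the highest, and the groups overlapped. Their log2 fold changes were -0.45 and -0.38 on FPKM, with standard errors of 0.21 and 0.17 and adjusted p of 0.303 and 0.293 by limma. On the reads they were -0.58 and -0.46, with adjusted p of 0.0947 and 0.0883 by voom. On FPKM the change of Col1a1 was -0.24 without sedentary replicate 2, and that of Col1a2 was -0.25 without control replicate 3. Per length, the ratio of Col1a1 to Col1a2 averaged 0.888 ± 0.0460 in the control libraries and 0.837 ± 0.175 in the sedentary ones (SD, n = 3 each). The ratio lay between 0.859 and 0.953 in 5 libraries and at 0.636 in sedentary replicate 2. It depends on gene lengths of 6546 and 12427 bases in the table.

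Col27a1, a fibrillar chain found in developing cartilage, had no overlap between groups. It stood at 0.879, 0.844 and 0.706 FPKM in the control and at 0.665, 0.630 and 0.689 FPKM in the sedentary libraries. Its log2 fold change was -0.17, the standard error 0.14 and the adjusted p by limma 0.532. Col5a1, a chain of type V collagen that limits fibre width, had overlapping groups, a log2 fold change of -0.10 and a standard error of 0.13. The change of Col5a1 ran from -0.16 without control replicate 1 to -0.020 without sedentary replicate 2. Its partner Col5a2 lay between 0.105 and 0.154 FPKM in the 6 libraries and was not tested. On the opposite strand, over 5021 bases of the Col5a1 span, lies the transcript Gm13372 at a mean of 0.762 FPKM. Whether reads were counted by strand is not given in the sources used here, so reads of such pairs cannot be told apart.

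Col2a1 differed from the other tested fibrillar genes in direction. It stood at 9.52, 8.29 and 8.03 FPKM in the control and at 10.8, 8.80 and 10.7 FPKM in the sedentary libraries, with overlap through control replicate 1 and sedentary replicate 2. The log2 fold change was 0.22 with a standard error of 0.11, and the adjusted p was 0.336 by limma and 0.231 by voom. Of the cartilage markers, Acan, Matn1 and Matn3 lay at or below 0.202 FPKM in every library, and Matn1 was listed at 0 in 3 of them. Comp, a matrix protein that binds collagens, was the exception at 102.9 to 119.3 FPKM in control and 120.8 to 145.1 FPKM in sedentary testes, and its adjusted p was 0.217 by limma and 0.0921 by voom. The untested fibrillar genes were Col11a1, Col11a2, Col24a1, Col5a2 and Col5a3, at means of 0.0802 to 0.311 FPKM. The sedentary mean was lower in 4 of these 5, and Col11a2 was higher without overlap, at 0.239, 0.298 and 0.234 FPKM in the control and 0.303, 0.414 and 0.376 FPKM in the sedentary libraries. Of all 32575 genes with a read, 8.94% were higher without overlap.

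Type IV collagen, the network former of basement membranes, had all 5 of its tested chains below 0, with log2 fold changes from -0.39 to -0.25 on FPKM, and none was called in either fit. The summed level of its 6 chains was 11.2, 10.0 and 14.2 FPKM in the control and 9.25, 7.73 and 9.81 FPKM in the sedentary libraries. The 2 groups did not overlap in this sum, and control replicate 3 stood well above the other controls.

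Col4a1 and Col4a2, whose chains form the type IV trimer present in most basement membranes, are the pair with the shared promoter windows shown above. In the table their gene models lie head to head on chromosome 8 and overlap by 22 bases. Col4a1 stood at 3.15, 3.19 and 4.31 FPKM in the control and at 2.85, 2.23 and 2.71 FPKM in the sedentary libraries, with no overlap. Col4a2 stood at 3.06, 2.98 and 3.90 FPKM in the control and at 2.78, 1.89 and 3.19 FPKM in the sedentary libraries. Sedentary replicate 3 exceeded control replicates 1 and 2 for Col4a2, so its groups overlapped. The log2 fold changes on FPKM were -0.38 for Col4a1 and -0.30 for Col4a2, with standard errors of 0.14 and 0.18 and adjusted p of 0.242 and 0.393 by limma. Without control replicate 3 they were -0.25 and -0.20, and without sedentary replicate 2 that of Col4a2 was -0.12. Their levels per length were close, at a ratio of Col4a1 to Col4a2 of 1.07 ± 0.0375 over the control libraries and 1.02 ± 0.168 over the sedentary ones (SD, n = 3 each).

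The chains of the other type IV networks were lower in level. Col4a3, Col4a4 and Col4a5 form the trimer best known from the kidney filter. Col4a4 stood at 2.65, 1.96 and 3.08 FPKM in the control and at 2.06, 1.95 and 2.10 FPKM in the sedentary libraries, and control replicate 2 lay within the sedentary range. Col4a3 stood at 1.03, 0.824 and 1.30 FPKM in the control and at 0.662, 0.751 and 0.832 FPKM in the sedentary libraries. Control replicate 2 and sedentary replicate 3 were the overlapping pair for Col4a3. Col4a5, on the X chromosome, stood at 0.843, 0.716 and 1.01 FPKM in the control and at 0.455, 0.567 and 0.580 FPKM in the sedentary libraries, with no overlap. On FPKM the log2 fold changes of Col4a3, Col4a4 and Col4a5 were -0.31, -0.25 and -0.39, with adjusted p of 0.345, 0.397 and 0.253 by limma. Without control replicate 3 that of Col4a3 was -0.19 and that of Col4a4 was -0.13, and without control replicate 2 that of Col4a4 was -0.40. On the reads they were -0.48, -0.32 and -0.68, with adjusted p of 0.111, 0.188 and 0.0644 by voom.

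Each of these chains has a head-to-head neighbour of its own family. The Col4a4 and Col4a3 models were 71 bases apart on chromosome 1, and those of Col4a6 and Col4a5 were 1308 bases apart on the X chromosome. Col4a6, the chain that joins Col4a5 in some smooth muscle basement membranes, stayed below the filter at 0.338 to 0.563 FPKM. Its sedentary mean was 0.398 ± 0.0552 and its control mean 0.450 ± 0.105 FPKM (SD, n = 3).

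**Figure D3:**
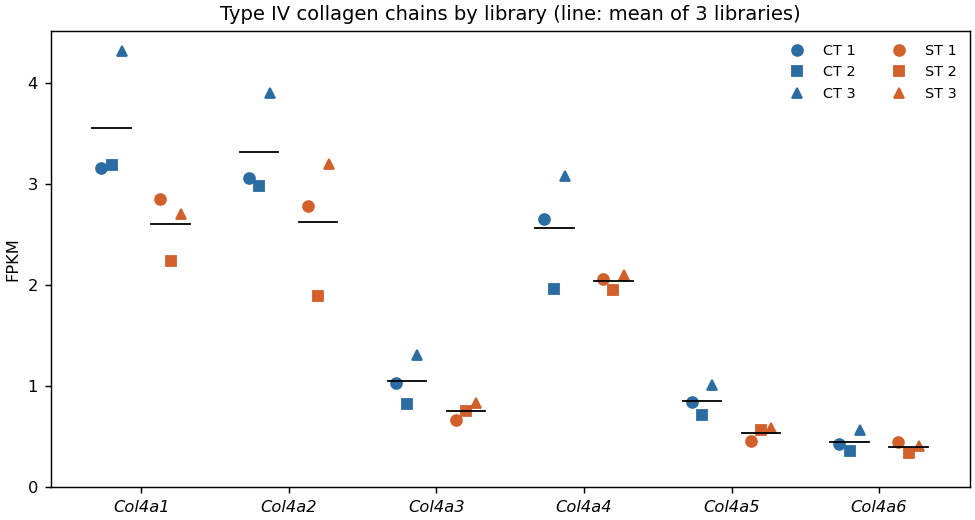
FPKM of the 6 type IV collagen chains in each library, control in blue and sedentary in orange, with a line at the mean of 3 libraries. Col4a1 and Col4a5 show no overlap between groups, and control replicate 3 is the highest library for every chain.

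Col15a1 and Col18a1 encode the related collagens that sit in the basement membrane zone, and they lay on opposite sides of 0. Col15a1, abundant around muscle and vessels, stood at 1.95, 2.16 and 2.62 FPKM in the control and at 1.40, 1.54 and 1.87 FPKM in the sedentary libraries, with no overlap. Its log2 fold change was -0.38 with a standard error of 0.14, and its adjusted p was 0.240 by limma and 0.0810 by voom. Col18a1, the precursor of endostatin, stood at 2.37, 2.02 and 1.78 FPKM in the control and at 2.29, 2.32 and 2.79 FPKM in the sedentary libraries. The Col18a1 groups overlapped through control replicate 1, and its log2 fold change was 0.22, the standard error 0.13 and the adjusted p by limma 0.408.

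**Figure D4:**
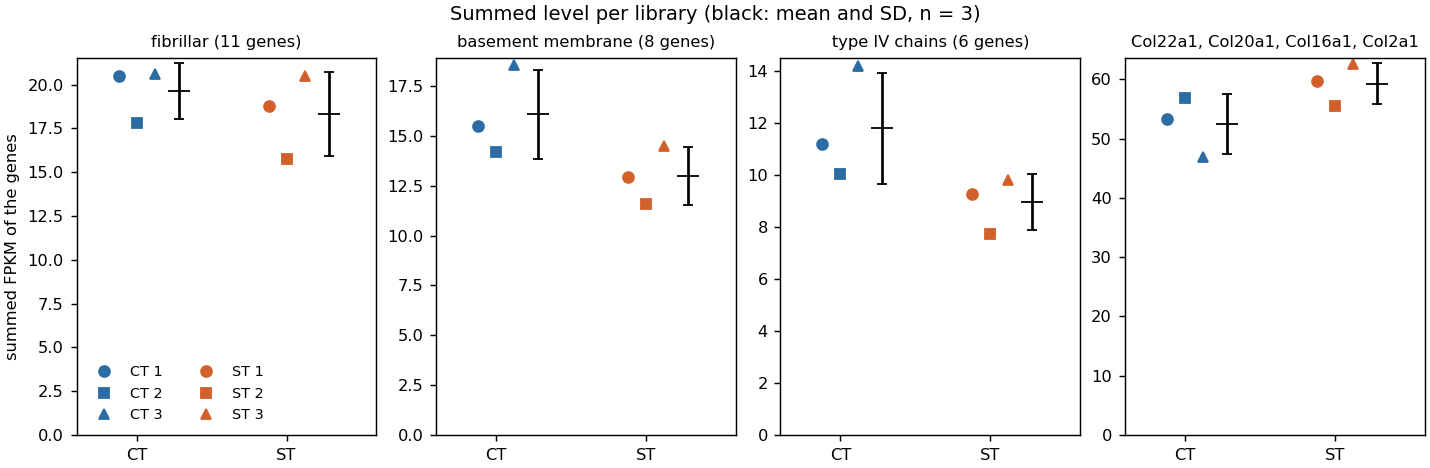
Summed FPKM per library of the 11 fibrillar, the 8 basement membrane and the 6 type IV collagens and of the 4 collagens of highest mean level, with mean and SD of 3 libraries in black and each axis starting at 0. The type IV sums of the groups do not overlap, while the basement membrane sums of 14.2 to 18.6 FPKM in control and 11.6 to 14.5 FPKM in sedentary libraries overlap by 1 pair.

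The other collagens were led by genes that were level or higher in sedentary testes. Col20a1 stood at 11.7, 13.3 and 12.8 FPKM in the control and at 14.8, 14.7 and 15.8 FPKM in the sedentary libraries. It was the tested collagen whose sedentary values all lay above the controls, and its log2 fold change of 0.25 had the smallest standard error of the 28, at 0.08. The adjusted p of Col20a1 was 0.214 by limma and 0.117 by voom. A sense-overlapping transcript, 9230112E08Rik, shares 741 bases of its span at a mean of 0.749 FPKM. Col22a1 stood at 19.5, 23.3 and 15.97 FPKM in the control and at 23.5, 20.7 and 23.2 FPKM in the sedentary libraries. The spread of the Col22a1 controls covered the sedentary range nearly whole, and its log2 fold change was 0.21 with a standard error of 0.13. It was 0.075 without control replicate 3 and 0.34 without control replicate 2. Col16a1 stood at 12.7, 12.04 and 10.2 FPKM in the control and at 10.7, 11.4 and 12.8 FPKM in the sedentary libraries. The Col16a1 means were 11.6 FPKM in both groups, and the log2 fold change was 0.00 with a standard error of 0.11, its sign changing with the scaling.

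Type VI collagen forms beaded filaments around cells from the products of Col6a1, Col6a2 and Col6a3. Col6a1 stood at 3.74, 3.16 and 4.39 FPKM in the control and at 2.98, 2.11 and 3.38 FPKM in the sedentary libraries, and overlapped through control replicate 2 and sedentary replicate 3. Its log2 fold change was -0.37 with a standard error of 0.17, and its adjusted p was 0.304 by limma and 0.124 by voom. Without sedentary replicate 2 the change of Col6a1 on FPKM was -0.21. Col6a2, at 0.983, 0.771 and 0.941 FPKM in the control and 0.763, 0.540 and 0.907 FPKM in the sedentary libraries, had a log2 fold change of -0.19 with a standard error of 0.16. It was -0.066 without sedentary replicate 2 and -0.28 without sedentary replicate 3. Col6a3 lay between 0.245 and 0.446 FPKM in the 6 libraries and was not tested. The ratio of Col6a1 to Col6a2 ran from 3.72 to 4.66 over the libraries, with gene lengths of 4380 and 8326 bases in the table. The alternative chains Col6a4 and Col6a5 had log2 fold changes of 0.15 and 0.02, and Col6a6 lay at or below 0.148 FPKM.

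Type IX collagen, which coats type II fibres in cartilage, had 2 tested chains on opposite sides of 0. Col9a3 stood at 2.69, 2.44 and 2.86 FPKM in the control and at 1.77, 2.18 and 2.71 FPKM in the sedentary libraries. Its log2 fold change was -0.23 with a standard error of 0.14, and it was -0.11 without sedentary replicate 1 and -0.36 without sedentary replicate 3. Col9a3 shares 234 bases, on the opposite strand, with Tcfl5, which stood at a mean of 118.8 FPKM. Col9a1 stood at 0.745, 0.824 and 0.738 FPKM in the control and 0.952, 0.804 and 0.705 FPKM in the sedentary libraries, at a log2 fold change of 0.05 that was -0.017 with TPM scaling. Col9a2 had 11 control and 6 sedentary reads in all, and was listed at 0 in control replicate 2.

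The remaining tested members differed by less than 2 standard errors on log2(FPKM + 0.5), and none was called on the reads. Among these, the transmembrane Col23a1 had a log2 fold change of 0.22, the fibril-associated Col14a1 one of 0.10 and Col28a1 one of 0.06, each with a standard error of 0.13 or 0.14. Col12a1, which links fibres to other matrix, had -0.16, Col26a1 -0.12 and Col17a1, a chain of epithelial anchoring complexes, -0.02. Col12a1 overlaps the antisense transcript 4930562D21Rik, at a mean of 6.04 FPKM, over 2132 bases. The other 10 untested genes of this class were Col6a3, Col6a6, Col7a1, Col8a1, Col8a2, Col9a2, Col10a1, Col13a1, Col19a1 and Col25a1, at means of 0.0256 to 0.400 FPKM. For 8 of the 10 the sedentary mean was the lower one, and none of the 10 had groups without overlap. Of all 32575 genes with a read, 9.34% were lower without overlap and 8.94% higher. All 7067 bases of the Col10a1 span lie within Nt5dc1, a gene on the opposite strand at a mean of 7.11 FPKM.

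Among the 17 collagens below 0, control replicate 3 was the highest control for 12 of them and control replicate 2 the lowest for 11. Sedentary replicate 2 was the lowest sedentary library for 11 and sedentary replicate 3 the highest for 14. On the reads, voom without control replicate 2 called 8 collagens, all lower, against 3.13% of all genes, namely Col1a1, Col1a2, Col3a1, Col4a1, Col4a3, Col4a4, Col4a5 and Col6a1. Leaving out any other single library gave 0 collagens on the reads. With control replicate 3 left out, the median of the basement membrane collagens on FPKM was -0.20 in place of -0.31.

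Genes that make, bind or break down collagen were described from a list of 86 genes, of which 84 were in the table and 54 were tested. Of these 54, 32 lay below 0, against 47.8% of all tested genes, and the median log2 fold change was -0.063. Limma on FPKM called 0. At an unadjusted p under 0.05 it gave 8 lower and 3 higher, against 7.26% and 10.1% of all tested genes, and the 8 include Mmp2, which was tested only through its control values. Voom on the reads called 3 lower, against 1.12% of all tested genes, and 0 higher. The 3 were Lamc3 and Lamb1, laminin chains of basement membranes, and Bgn, the small proteoglycan biglycan that binds collagen fibres. Lamc3 stood at 5.13, 4.61 and 7.57 FPKM in the control and at 3.38, 3.10 and 3.95 FPKM in the sedentary libraries, at -0.63 for the log2 fold change and 0.0285 for the adjusted p by voom. Lamb1 and Bgn had log2 fold changes of -0.49 and -0.47 on FPKM and adjusted p of 0.0433 and 0.0465 by voom. Each of these calls was lost when one or another library was left out, with an adjusted p by voom of up to 0.0990 for Lamc3, 0.211 for Lamb1 and 0.226 for Bgn. All 3 had sedentary values below every control, and on FPKM their adjusted p by limma were 0.206, 0.215 and 0.207. Of the 54 tested genes, 11 were lower and 6 higher without overlap between groups, against 10.8% and 13.7% of all tested genes. Mmp2 is among the 11.

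The steps of the pathway differed in how many members lay below 0. All 6 tested fibril-associated proteoglycans did, with a median of -0.19, and Dcn, or decorin, stood at 29.6, 30.1 and 47.0 FPKM in the control and 21.7, 26.0 and 27.2 FPKM in the sedentary libraries. Among basement membrane partners 7 of 13 lay below 0, with a median of -0.18. Nid1, which ties laminin to type IV collagen, had a log2 fold change of -0.23, and Sparc, a collagen-binding protein, one of 0.17. Of 3 tested genes for propeptide removal all lay below 0, led by Pcolce, an enhancer of that step, at -0.29. The 13 tested genes for folding and modification had 6 below 0 and a median of 0.03. Serpinh1, the collagen chaperone, stood at -0.19 and Plod2, a lysyl hydroxylase, at -0.28, while P3h4 stood at 0.47 with sedentary values all above the controls. Of the genes named here, Dcn, Nid1, Sparc, Pcolce, Serpinh1, Plod2 and P3h4, none was called in either fit. With TPM scaling the median of the folding genes was -0.081, so its sign depends on the scaling, and with quantile normalization 5 of the 6 proteoglycans lay below 0.

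Receptors and enzymes outside the cell gave values on both sides. Ddr1 and Ddr2, the discoidin domain receptors for collagen, had log2 fold changes of 0.41 and -0.32, each without overlap between groups and with adjusted p of 0.247 and 0.310 by limma. Among crosslinking genes Loxl1 stood at 0.35, without overlap, and Tgm2 at -0.25, and Lox itself was below the filter. Mmp2, a gelatinase, stood at 0.823, 0.693 and 0.526 FPKM in the control and at 0.286, 0.157 and 0.447 FPKM in the sedentary libraries. Mmp2 was tested only because the 3 controls reached 0.5 FPKM, and its adjusted p was 0.218 by limma and 0.0555 by voom. Mmp14, a membrane-bound metalloproteinase, had a log2 fold change of 0.26, and the inhibitor Timp3 one of -0.37.

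**Figure D5:**
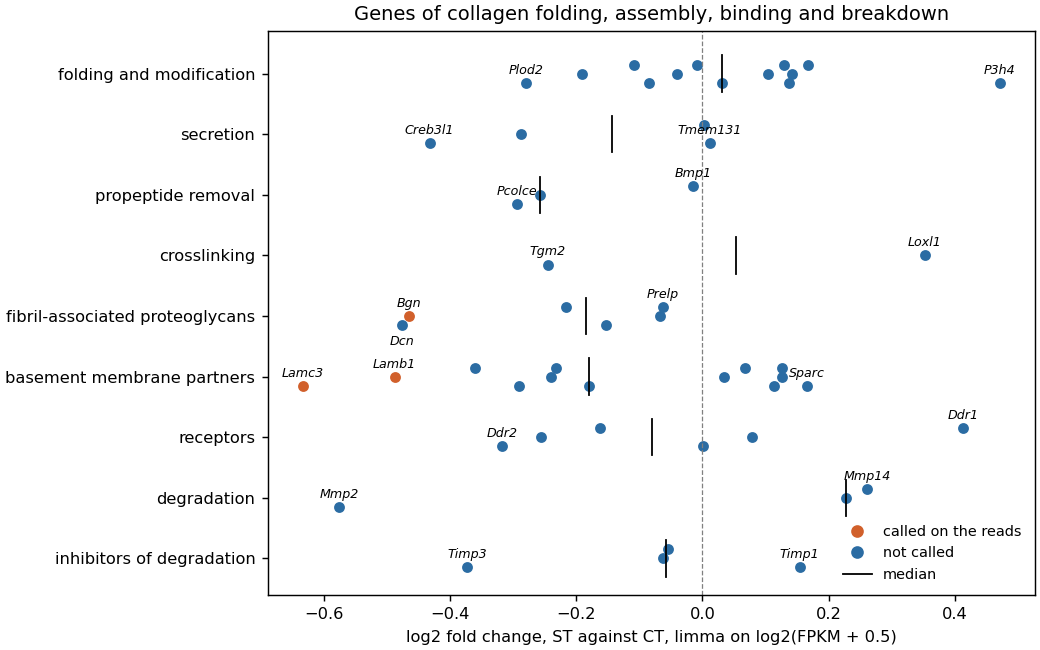
Log2 fold change on log2(FPKM + 0.5), sedentary against control, of the 54 tested genes that make, bind or break down collagen, by step, with the median of each step as a black line. Lamc3, Lamb1 and Bgn, called on the reads, are in orange, and all 6 fibril-associated proteoglycans lie left of 0.

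Markers of stromal cells lay mostly below 0 in the same comparison. Of 8 fibroblast markers other than collagens, 6 lay below 0, or 5 on the reads and with quantile normalization. Fbln1 and Mfap5 lay above 0, and Dcn and Lum were also counted among the fibril-associated proteoglycans. The summed level of the 8 was 81.9 to 116.0 FPKM in control and 68.7 to 84.3 FPKM in sedentary testes. Of 8 peritubular and smooth muscle markers 7 lay below 0. Their sums of 252.3 to 273.6 FPKM in control and 259.8 to 293.3 FPKM in sedentary testes were mostly Actg2. Actg2, an actin of visceral muscle at 192.2 FPKM or more in every library, was the member above 0, at a log2 fold change of 0.21. Acta2, the actin of peritubular myoid cells, stood at 32.1, 27.0 and 38.6 FPKM in the control and at 25.2, 17.0 and 25.4 FPKM in the sedentary libraries. Leydig markers had 7 of 8 below 0 and sums of 1082 to 1532 against 960 to 1386 FPKM. These sums were mostly Insl3, at a log2 fold change of -0.04. On the reads voom called the Leydig marker Star lower, at an adjusted p of 0.0148, and the fibroblast marker Pdgfra lower, at 0.0329. Over all tested genes 1.12% were called lower on the reads. The sums of 8 endothelial markers were 4.78 to 5.25 against 3.87 to 5.13 FPKM, with 4 tested. One of the 4, Tek, was tested only because the 3 controls reached 0.5 FPKM. The sums of 5 pericyte markers were 2.73 to 3.56 against 2.17 to 2.99 FPKM, with 1 tested.

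Other lists lay above 0 or near it. All 11 Sertoli markers lay above 0, or 10 with TPM scaling, with sums of 305.8 to 341.9 FPKM in control and 397.5 to 470.7 FPKM in sedentary testes. Germ cell markers had 4 of 8 above 0, namely Prm1, Prm2, Tnp1 and Tnp2, or 1 with quantile normalization. On the reads voom called higher the Sertoli markers Amhr2, at an adjusted p of 0.0224, and Cst9, at 0.0460, and the germ cell markers Prm2, at 0.0389, and Tnp2, at 0.0277. Over all 19201 tested genes, 61 were called higher on the reads. Each of these marker calls was lost when one or another library was left out. Macrophage markers had 4 of 6 tested above 0 and sums over 7 genes of 14.97 to 41.0 against 26.1 to 40.1 FPKM. Of 5 mesothelial markers of the capsule 1 was tested, at a log2 fold change of 0.01. Their sums were 1.16 to 1.77 FPKM in control and 1.16 to 1.67 FPKM in sedentary libraries, with Upk3b and Msln listed at 0 in some. The part of any of these cell types in the collagen values was not tested.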

How the data were processed

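The deposited table holds FPKM, computed by the authors, of 44065 genes over 6 libraries. HISAT2, StringTie and DESeq2 are named in the submitters' processing notes, as are mm10 and mm39. The role and version of each were not stated in the labels. The build of the table's coordinates is not settled, so distances between its genes are given and RefSeq sequences carry their own build. Whole reads were recovered from the FPKM values and gene lengths. All low values were whole within 0.001 of a read, and 57.5% of those from 1 to 20 reads were even numbers.

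The test was limma 3.58.1 (R 4.3.3) with a variance prior that follows expression, two-sided, on log2(FPKM + 0.5), over 19201 genes with at least 0.5 FPKM in 3 of 6 libraries, with Benjamini-Hochberg adjustment at 0.05. Fold changes on this scale understate the change of low genes. Voom used the recovered reads with the library totals that the FPKM values imply. These totals lay below the summed reads in sedentary libraries, above them in control replicates 1 and 3, and level in control replicate 2. Scaling by summed reads thus lowers sedentary levels relative to control. No pair of replicates was a repeat deposit, since counts differed beyond counting noise at a chi-square per gene of 7.65 to 18.2. GC content came from the longest GENCODE M21 transcript of each symbol, and trends were removed with mgcv 1.9.3 over 14504 tested genes with a value, all 28 tested collagens among them. The fits were also run on simulated reads with the same spread set for every gene, which cannot speak to the spread of the collagens between replicates.

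The members, classes, gene lists and tests were chosen with earlier results of these data known. Given with the value in every library were collagens called in either fit, tested collagens without overlap between groups, the 3 of highest mean level in each class, and partner chains of 1 trimer. Some other members and pathway genes were given values after these were seen.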

Additional observations from a re-analysis of the deposited data

How the results depend on the processing

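On FPKM 0 collagens were called under any alternative, and the fibrillar and basement membrane medians stayed below 0 under each. Genes called over the whole table, 5 on FPKM, were 1 without a filter, 3 at 1 FPKM, 16 with array weights, and 0 after GC and length removal. On the reads they were 277, with 429 when summed reads were the totals, 125 over genes with a GC value and 59 after GC and length removal. Collagens called on the reads were 1 in the first 3 of these fits and 0 in the last. Over all tested genes the replicate numbers gave no sign of pairing the samples: deviations of same-numbered samples correlated at -0.0674, -0.0875 and -0.0346. Among the 17 collagens below 0, replicate 2 was most often the lowest and replicate 3 most often the highest in both groups. With 3 libraries in each group, neither the correlations nor this order can show or exclude a pairing. With a replicate block 0 genes were called on FPKM, and 381 genes and 3 collagens, Col1a1, Col1a2 and Col3a1, on the reads. Leaving out 1 library gave 0 to 2 genes and 0 collagens on FPKM, and 22 to 1058 genes and 0 to 8 collagens on the reads.

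Collagens below 0, 17 of 28, were 30 of 44 without a filter and 10 of 19 at 1 FPKM, which change the genes tested. On the same 28 they were 21 with TPM scaling, 19 with summed totals and 16 to 18 without 1 library. The fibrillar median, -0.28, was -0.10 without a filter, -0.45 with summed reads as totals and -0.43 on the reads after GC and length removal. Without 1 library it was -0.34 to -0.20, and on the reads -0.46 to -0.27. The basement membrane median, -0.31, was -0.45 on the reads, both over all tested genes and over those with a GC value. It was -0.52 with summed totals and -0.52 after GC and length removal. Without 1 library it was -0.41 to -0.20, and on the reads -0.53 to -0.30. The other collagens, at 0.02, were at -0.035 without a filter, 0.10 at 1 FPKM, -0.045 with summed totals, -0.049 with TPM scaling, 0.10 with quantile normalization, 0.0064 to 0.057 without 1 library and 0.01 to 0.10 on the reads. The median of all tested collagens, -0.14, was -0.22 at a pseudocount of 0.1, -0.25 on the reads with all genes, genes with a GC value or GC and length removed, -0.24 there with a replicate block, -0.33 with summed totals, -0.21 with TPM and -0.068 with quantile scaling. Without 1 library it was -0.16 to -0.069, and on the reads -0.25 to -0.12. The median of all genes, 0.01, was -0.09 with TPM scaling and -0.06 with summed totals.

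Col16a1, at 0.00, changed sign to -0.078 with summed totals, -0.11 with TPM, -0.026 with quantile scaling, -0.10 with array weights, -0.13 after GC and length removal and -0.16 with that on the reads. Without 1 library it was -0.086 to 0.062, and on the reads -0.091 to 0.067. Col9a1, at 0.05, was -0.017 with TPM scaling, -0.017 to 0.12 without 1 library and -0.020 to 0.19 on the reads. The causes of these shifts were not tested. Placing Col15a1 and Col18a1 with the other collagens moved no class median by more than its spread. The genes with a GC value, as a base for that removal, and the scalings of the pathway and marker lists were added after the data were seen. The 16 untested collagens were left out by their FPKM, which also depends on gene length. They had 17 to 985 reads each over all libraries, and the tested ones 623 to 39675.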
